A study of Mus musculus with 9 samples.

Results

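The mRNA levels of 9 genes of zinc and copper handling were examined in RAW264.7 cells, a mouse macrophage line. They were the metallothioneins Mt1 and Mt2, the metal-sensing transcription factor Mtf1, the zinc exporter Slc30a1 (ZnT1) and the zinc importers Slc39a14 (ZIP14) and Slc39a1 (ZIP1). The others were the copper transporters Slc31a1 (CTR1) and Slc31a2 (CTR2) and the copper-exporting ATPase Atp7a. The genes were chosen by name, and all 9 were found among the 54532 genes of the deposited expression table. Control cells were untreated, LPS cells received 1 μg/ml of lipopolysaccharide, the inflammatory glycolipid of Gram-negative bacteria, and LPS + G-CDs cells received the same LPS together with 400 μg/ml of G-CDs, carbon dots made from Glycyrrhiza (licorice). Both treatments lasted 6 h, and each group held 3 libraries. All libraries came from this 1 wild-type line, whose tissue label reads Ascites. For the LPS + G-CDs libraries the sample titles name G-CDs while the treatment label gives LPS alone, so the group was taken from the titles. Whether the 3 libraries of a group came from separate cultures is not given in the sources used here, so p-values measure the spread between these libraries, which may be technical.

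Metallothioneins are small, cysteine-rich proteins that bind zinc and copper ions and buffer their free concentration in the cytoplasm. When free zinc rises, Mtf1 binds short metal response elements (MREs) and switches on Mt1, Mt2 and Slc30a1. ZIP (SLC39) proteins bring zinc into the cytoplasm and ZnT (SLC30) proteins take it out or into organelles, and CTR1 and ATP7A do the corresponding work for copper. In macrophages this traffic is part of the defense known as nutritional immunity, in which bacteria are starved of metal or poisoned with it. Metallothionein genes are also known to respond to oxidative stress and to inflammatory signals.

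The promoters of Mt1, Mt2 and Slc30a1 are shown because these are the textbook targets of Mtf1 among the 9 genes. Each is the stretch of 250 bases before the RefSeq start (build GRCm38.p6, plus strand), and capitals mark matches to the MRE core, written TGCACNC or TGCGCNC and sought on both strands. The stretches lie at chr8:94178839-94179088 for Mt1, chr8:94172368-94172617 for Mt2 and chr1:191906531-191906780 for Slc30a1.
Mt1: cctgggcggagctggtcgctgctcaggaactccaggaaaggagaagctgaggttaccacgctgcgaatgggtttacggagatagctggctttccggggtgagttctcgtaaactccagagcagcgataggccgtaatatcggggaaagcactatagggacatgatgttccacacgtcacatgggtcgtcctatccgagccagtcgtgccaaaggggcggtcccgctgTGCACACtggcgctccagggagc
Mt2: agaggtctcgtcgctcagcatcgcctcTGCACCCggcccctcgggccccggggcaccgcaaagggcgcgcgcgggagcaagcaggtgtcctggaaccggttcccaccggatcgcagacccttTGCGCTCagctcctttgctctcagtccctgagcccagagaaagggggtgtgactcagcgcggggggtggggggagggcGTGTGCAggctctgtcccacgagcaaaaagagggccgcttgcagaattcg
Slc30a1: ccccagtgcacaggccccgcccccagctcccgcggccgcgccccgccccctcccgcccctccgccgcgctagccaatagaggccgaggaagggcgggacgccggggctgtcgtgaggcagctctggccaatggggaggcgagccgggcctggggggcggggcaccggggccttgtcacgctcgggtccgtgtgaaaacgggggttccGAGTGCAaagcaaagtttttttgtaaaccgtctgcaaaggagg
Mt1 and Mt2 sit close together on chromosome 8, at 94179082 to 94180327 and 94172664 to 94173568, and Slc30a1 lies on chromosome 1, at 191906767 to 191913247 (GRCm38, GENCODE M21).

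With the 50 bases after the start included, Mt2 held 4 MRE cores, Mt1 3 and Slc30a1 2. A count of 4 or more was found in 0.517% of the 32851 RefSeq promoters of this length, 3 or more in 1.97% and 2 or more in 7.11%. Only 1 RefSeq start per gene was searched, while Mt1 has 3 transcripts in GENCODE M21, so counts and positions are those of this window alone. Of the Mt1 cores, 1 lay at bases 23 to 17 before this RefSeq start and the other 2 in a short stretch after it, at chr8:94179091-94179115.
Mt1 after the start: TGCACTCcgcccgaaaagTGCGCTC
Of the other members, Atp7a held 2 cores, Slc31a2 held 1, and none was found in the windows of Mtf1, Slc39a1 and Slc31a1. At least 1 core was present in 25.7% of all promoters. The core of the antioxidant response element, TGACNNNGC on either strand, was found once each in the windows of Mt2, Slc30a1, Slc39a1 and Slc31a2 and in 12.4% of all promoters, and it overlapped no MRE core in the members. Promoter entries were matched for 8 members, and Slc39a14 is named only. These matches describe the letters and not binding.

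Gene expression was given as FPKM, which divides the fragments of a gene by its length and by the size of the library. The libraries held 14752400 to 17312255 reads on genes, and each member had 46 reads or more in every library, well above the 3 reads taken as the floor of detection. All 8 macrophage markers examined were above 1 FPKM in every library, whereas none of 16 markers of T cells, B cells, fibroblasts and epithelial cells reached 1 FPKM. Of these 16, 6 were at 0 throughout, and the highest value of any was 0.497 FPKM. The summed FPKM of 5 LPS-responsive genes (Tnf, Il6, Il1b, Nos2 and Acod1) was between 37.5 and 69.7 in the control libraries, between 5660 and 5710 with LPS and between 5130 and 5450 with LPS + G-CDs, so each library matched its label for LPS. The sum of Hmox1, Srxn1 and Gclm, known from earlier work on these data to be high with G-CDs, was between 81.3 and 108 in control, 97.7 and 105 in LPS and 740 and 936 in LPS + G-CDs libraries. In bulk RNA, fewer cells expressing a gene and less RNA per cell cannot be told apart.

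Mt1 had the highest FPKM of the 9 genes in every group, followed by Slc39a1 and Mt2. In control cells the group means were 128 ± 53.9 FPKM for Mt1, 48.0 ± 2.91 for Slc39a1 and 18.4 ± 14.1 for Mt2 (SD, n = 3). Mt2 overlapped the next gene in that order, Slc31a1, at 16.5 ± 0.863 FPKM. Below them came Slc39a14, and Slc31a2, Slc30a1, Mtf1 and Atp7a closed the order with ranges that overlapped from one to the next. With LPS, Slc30a1 was the lowest of the 9, at 2.30 ± 0.260 FPKM, and its range lay apart from that of its neighbor Atp7a. With LPS + G-CDs the last places were again held by Slc30a1 and Atp7a, whose ranges overlapped. Levels, and with them this order, depend on the gene length used, which is the full exon span. For Mt1 the table divides by 1246 bases, while the transcript Mt1-201 has 549 bases in 3 exons. For Slc39a14 it divides by 10550 bases, while Slc39a14-201 has 2098 and the longest transcript 5117. For Atp7a it divides by 8734 bases, while Atp7a-201 has 4866.

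**Figure D1:**
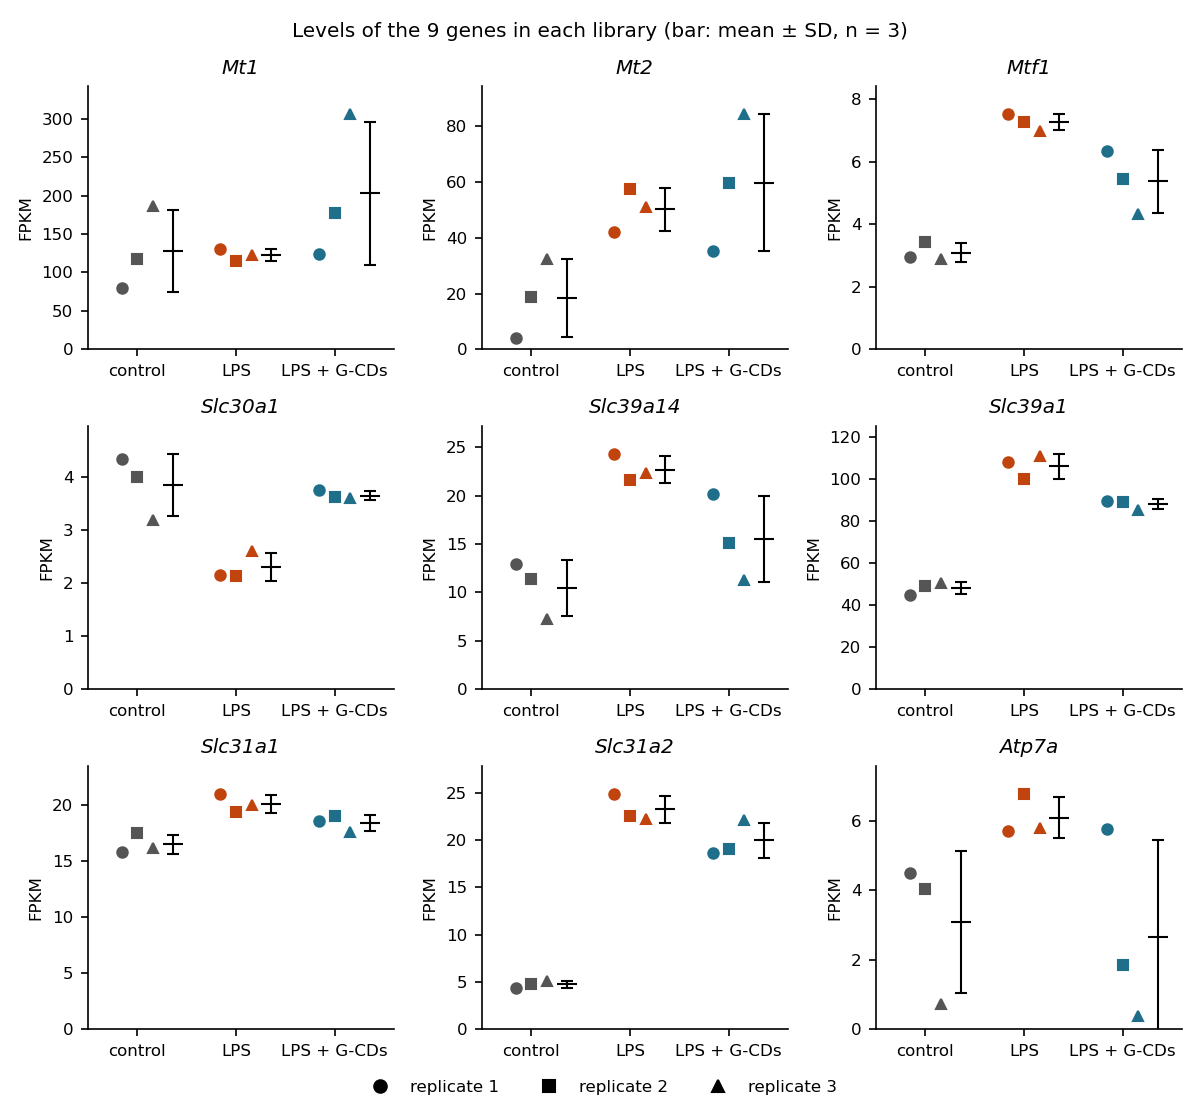
FPKM (vertical axes, linear and starting at 0) of each of the 9 genes in each library, with circles, squares and triangles for replicates 1, 2 and 3 and a bar for the mean ± SD of the 3 libraries. Slc31a2 and Slc39a1 lie well above their control values in both treated groups. Mtf1 lies above its control values too, with 4.32 FPKM in LPS + G-CDs replicate 3 against a highest control of 3.44. Slc30a1 is lower in each LPS library than in any other, and Mt1, Mt2 and Atp7a spread widely in the control and LPS + G-CDs groups.

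To ask how LPS alone moved this system, LPS cells were compared with control cells. LPS raised the metal sensor Mtf1, both zinc importers and the endosomal copper transporter Slc31a2 and lowered the zinc exporter Slc30a1. Of the 9 members, 5 passed an adjusted p of 0.05 (limma on log2(FPKM + 1), Benjamini-Hochberg over 11585 genes), where 31.3% of all tested genes did. The 4 higher members compare with 15.8% of all genes called higher, and the 1 lower member with 15.6% called lower. After rescaling to TPM the members split into 3 higher and 1 lower, while over all genes the calls moved from 1827 higher and 1803 lower to 1003 and 3059. In 8 of the 9 the libraries of the 2 groups did not overlap, as in 52.5% of all genes. The median log2 fold change was 1.02 over the members and 0.02 over all tested genes.

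Slc31a2, which works on endosomal copper, had the largest log2 fold change of the members that passed. It had 4.33, 4.77 and 5.08 FPKM in the control libraries and 24.9, 22.6 and 22.3 FPKM in the LPS libraries. The groups lay far apart. The log2 fold change was 2.08 (SE 0.11, limma adjusted p = 2e-06), and the ratio of the mean FPKM values was 4.92. Its relative Slc31a1, the high-affinity copper importer of the cell surface, had 15.8, 17.5 and 16.2 FPKM in control and 21, 19.4 and 20.0 FPKM in LPS cells. These groups did not overlap either, but the difference of 0.27 (SE 0.10) on the log2 scale did not pass the test (adjusted p = 0.065). It was 0.019 under TPM (adjusted p = 0.95) and 0.16 after quantile normalization (adjusted p = 0.27), while it passed with no filter on low values (adjusted p = 0.040) and with the gene-length trend removed (0.31, adjusted p = 0.021). Atp7a, which pumps copper out of the cytosol and into the phagosome, had 4.50, 4.04 and 0.720 FPKM in control and 5.72, 6.78 and 5.79 FPKM in LPS libraries. Each LPS library was above each control library, and control replicate 3 stood far below the other two. Its log2 difference of 0.97 (SE 0.58) was not past the threshold (adjusted p = 0.25), and it was 0.43 without control replicate 3.

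Among the zinc genes, Slc39a1, an importer of the plasma membrane, had 44.8, 49.1 and 50.3 FPKM in control and 108, 99.8 and 111 FPKM in LPS cells. The LPS level was 2.21 times the control level, with no overlap (log2 fold change 1.13, SE 0.11, adjusted p = 8.9e-05). Of the 50-base words of Slc39a1, 21.8% also occur in the pseudogene Slc39a1-ps, which was listed at 0.116 to 1.38 FPKM, so the assignment of a part of its reads is uncertain. Slc39a14, an importer known to be induced in inflammation, had 12.9, 11.4 and 7.28 FPKM in control and 24.3, 21.6 and 22.3 FPKM in LPS libraries. All LPS libraries were above all control libraries (log2 fold change 1.08, SE 0.24, adjusted p = 0.0079), but the call was lost after rescaling to TPM (0.86, adjusted p = 0.080).

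Slc30a1, which sends zinc out of the cell, moved the opposite way. It had 4.34, 4.0 and 3.20 FPKM in control and 2.15, 2.14 and 2.6 FPKM in LPS libraries. The highest LPS library was below the lowest control library, and the log2 fold change was -0.55 (SE 0.13, adjusted p = 0.0098), which is short of the 1.5-fold that the study's rule asks for on this scale. It was more than 1.5-fold with 0.1 in place of 1 added to FPKM (-0.71), by voom on the reads (-0.74) and under TPM (-0.91). The mean FPKM was 1.67 times lower with LPS. Mtf1 had 2.94, 3.44 and 2.89 FPKM in control and 7.51, 7.28 and 6.99 FPKM in LPS cells. The 2 groups were tight and apart, with a log2 fold change of 1.02 (SE 0.14, adjusted p = 0.00053). Of its exon bases, 8.09% are shared with 1110065P20Rik on the opposite strand, which was listed at 3.14 to 9.08 FPKM, and the strand setting of the counting is not given in the sources used here.

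Neither metallothionein was called at this comparison in the unpaired fit, and the call of Mt2 depended on the analysis. Mt1 had 79.7, 118 and 186 FPKM in control and 130, 115 and 123 FPKM in LPS libraries. The LPS libraries fell inside the spread of the control libraries. The log2 difference was 0.02 (SE 0.36, 95% confidence interval -0.80 to 0.85, adjusted p = 0.97), and it was negative after rescaling to TPM (-0.25) and after quantile normalization (-0.19). Mt2 had 4.17, 18.7 and 32.4 FPKM in control and 42.2, 57.4 and 51.2 FPKM in LPS libraries. Every LPS library was above every control library. With a log2 difference of 1.76 (SE 0.60) the adjusted p was 0.054. With the replicate number as a block in the limma fit of all 9 libraries, Mt2 was called at an adjusted p of 0.012. That block also joins the LPS + G-CDs libraries by number, so it is not a test of LPS and control pairs alone. Mt2 was also called by voom on the reads (1.89, adjusted p = 0.037), with the gene-length trend removed (1.77, adjusted p = 0.026) and with 1 FPKM required in all 9 libraries (adjusted p = 0.048). Without control replicate 3 the difference was 2.33 (adjusted p = 0.016), which is above that of Slc31a2 in the same fit (2.13), and without control replicate 1 it was 0.99 (adjusted p = 0.087). Leaving out control replicate 2 or 1 of the LPS libraries gave adjusted p-values between 0.074 and 0.15. Whether Mt1 and Mt2 differed in their response was not tested. An antisense gene, Gm45774, covers 73.5% of the exon bases of Mt2, and it was listed at 0.0600 to 0.321 FPKM.

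**Figure D2:**
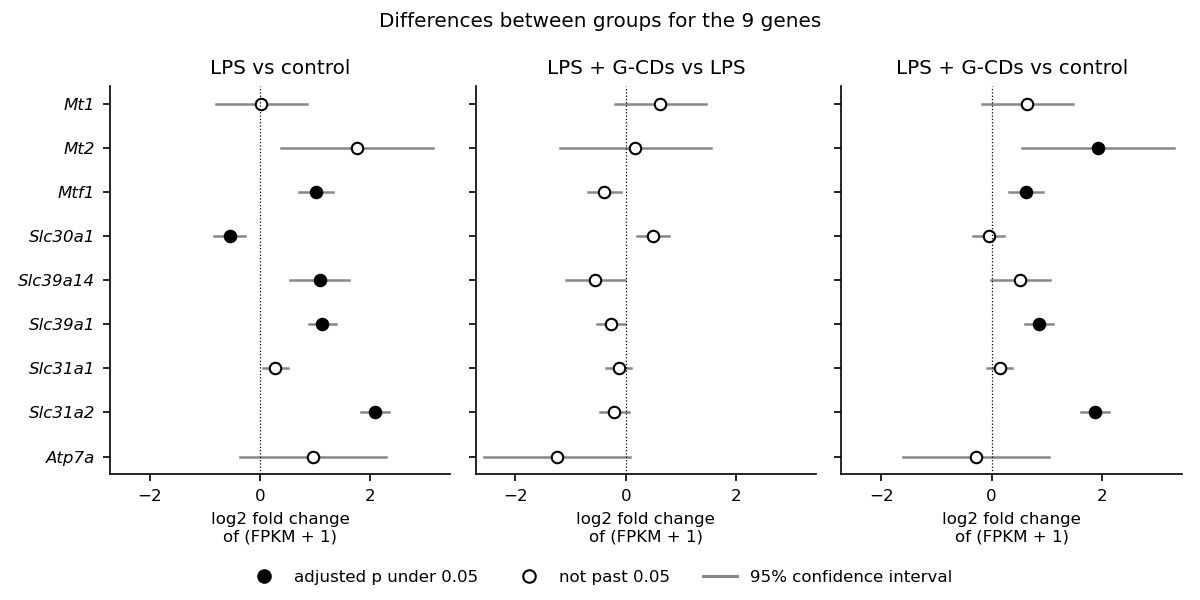
Log2 fold change of (FPKM + 1) with its 95% confidence interval for each of the 9 genes in the 3 comparisons, where filled circles passed an adjusted p of 0.05. In the first panel 5 genes are filled, in the second none, and in the third 4, and the intervals of Mt1, Mt2 and Atp7a are the widest.

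The effect of adding G-CDs was examined by comparing LPS + G-CDs with LPS cells. None of the 9 members passed an adjusted p of 0.05, and 0.492% of all tested genes did. That share rests on 57 genes, and it became 256 genes without LPS + G-CDs replicate 1 and between 11 and 29 without any other 1 of the 6 libraries. Voom on the recovered reads also called 0 members, as did the study's rule of an unadjusted p under 0.01 and more than 1.5-fold, which 2.49% of all genes met. At an unadjusted p under 0.05 there were 4 members (Mtf1, Slc30a1, Slc39a1 and Slc39a14), against 15.2% of all genes. The libraries of the 2 groups did not overlap for 6 members, against 27.9% of all genes. The median log2 difference was -0.21 over the members and 0.02 over all genes.

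Slc30a1 had the lowest p-value of the 9. It had 3.75, 3.62 and 3.60 FPKM in the LPS + G-CDs libraries, against 2.15, 2.14 and 2.6 in the LPS libraries. All LPS + G-CDs libraries were above all LPS libraries and within the control range of 3.20 to 4.34. The difference was 0.50 (SE 0.13, 95% confidence interval 0.21 to 0.78) on the log2 scale, with a limma p of 0.0033 and an adjusted p of 0.17. Over the alternative analyses the difference stayed between 0.45 and 0.67 and the adjusted p between 0.069 and 0.57.

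For the genes that LPS had raised, and for Slc31a1, the LPS + G-CDs values lay below those of LPS. Mtf1 had 6.34, 5.45 and 4.32 FPKM, all under the LPS range of 6.99 to 7.51 (log2 difference -0.39, SE 0.14, adjusted p = 0.29). Slc39a1 had 89.7, 89.0 and 85.2 FPKM against 99.8 to 111 with LPS (-0.27, SE 0.11, adjusted p = 0.32), and the difference was between -0.47 and -0.24 over the alternative analyses. Slc39a14 had 20.2, 15.1 and 11.3 FPKM against 21.6 to 24.3 with LPS (-0.56, SE 0.24, adjusted p = 0.32), and the difference was -0.75 without LPS + G-CDs replicate 1 and -0.36 without replicate 3. None of the 3 overlapped the LPS libraries, and none passed the test. Slc31a2 had 18.7, 19.1 and 22.1 FPKM, just under its LPS range of 22.3 to 24.9 (-0.21, SE 0.11, adjusted p = 0.35). Slc31a1 had 18.6, 19.0 and 17.6 FPKM against 19.4 to 21 with LPS (-0.13, SE 0.10, adjusted p = 0.46), with differences between -0.3 and -0.096 over the alternative analyses. Because the same 3 LPS libraries enter both comparisons, these values and those against control are not independent of each other.

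Mt1, Mt2 and Atp7a varied most among the LPS + G-CDs libraries. Mt1 had 124, 178 and 306 FPKM, of which the lowest lay inside the LPS range of 115 to 130 (log2 difference 0.62, SE 0.36, 95% confidence interval -0.20 to 1.45, adjusted p = 0.36). The difference was 0.93 without LPS + G-CDs replicate 1 and 0.28 without replicate 3. Mt2 had 35.2, 59.8 and 84.4 FPKM, on both sides of its LPS range of 42.2 to 57.4 (0.17, SE 0.60, 95% confidence interval -1.20 to 1.54, adjusted p = 0.88). Its direction turned without LPS + G-CDs replicate 3 (-0.12) and with the gene-length trend removed (-0.04). Atp7a had 5.76, 1.85 and 0.375 FPKM, a range that reached its LPS values of 5.72 to 6.78 at one end only (-1.25, SE 0.58, 95% confidence interval -2.57 to 0.08, adjusted p = 0.33). It was at -1.84 without LPS + G-CDs replicate 1 and at -0.69 without replicate 3. The intervals of these 3 genes include 0 as well as differences of more than 1 on the log2 scale.

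For part of the members this spread moved with gene length. Tested genes were split by length into 10 classes of nearly equal size. In class 2, whose median gene has 1120 bases, the median deviation from the group mean on the log2 scale was -0.345 in LPS + G-CDs replicate 1 and 0.371 in replicate 3. In class 1, of the shortest genes (median 330 bases), it was smaller, at -0.096 and 0.174. In class 10, of the longest genes (median 11400 bases), the same libraries lay at 0.328 and -0.313. Control replicate 3 went the same way, at 0.20 in class 2 and -0.270 in class 10, while the LPS libraries stayed between -0.038 and 0.023 in classes 2 and 10. Both metallothioneins deviated the same way: Mt1 (1246 bases) deviated by -0.61, -0.08 and 0.69 in LPS + G-CDs replicates 1, 2 and 3, and Mt2 (588 bases) by -0.66, 0.09 and 0.58. In control replicate 1, however, Mt1 deviated by -0.59 and Mt2 by -1.54, while classes 1 and 2 lay at -0.089 and -0.048. Slc39a1 (2364 bases) lay at 0.03, 0.02 and -0.05, where class 4, to which it belongs (median 2690 bases), lay at -0.164 in replicate 1 and 0.163 in replicate 3. Of the long members, Atp7a (8734 bases) ran the other way with 1.18, -0.07 and -1.12 and so did Slc39a14 (10550 bases) with 0.39, -0.01 and -0.39. With the length trend removed from each library, the difference between LPS + G-CDs and LPS was 0.34 for Mt1, -0.29 for Slc39a14, -0.17 for Mtf1 and -1.04 for Atp7a, each smaller than before. That of Slc30a1 was 0.55 (adjusted p = 0.070) and that of Slc31a2 was -0.44 (adjusted p = 0.12). No member was called in this fit either.

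**Figure D3:**
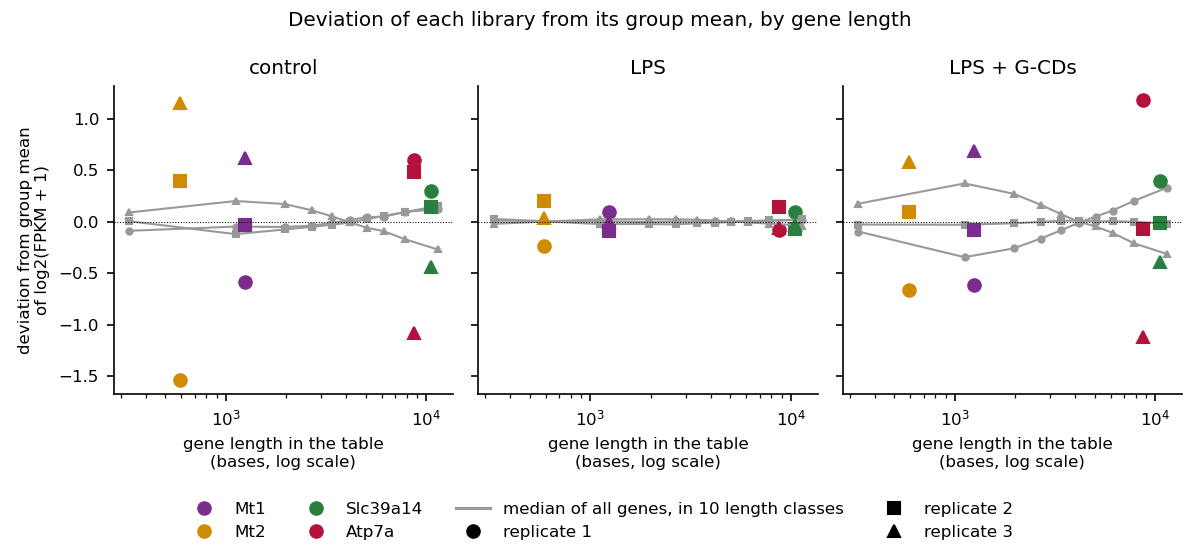
Deviation of each library from its group mean of log2(FPKM + 1) (vertical axis) against the gene length in bases (horizontal axis, log scale) in the 3 groups. Gray lines are medians over the 10 length classes of all tested genes, colored points are Mt1, Mt2, Slc39a14 and Atp7a, and circles, squares and triangles are replicates 1, 2 and 3. In the LPS + G-CDs panel replicate 3 lies above 0 for short genes and below 0 for long genes, replicate 1 does the reverse, and the LPS panel is nearly flat.

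LPS + G-CDs cells were also compared with control cells, to see which differences from untreated cells were present when both agents were given. Of the 9 members, 4 passed an adjusted p of 0.05, all of them higher, where 25.3% of all genes were called and 12.8% were called higher. The groups did not overlap for 5 members, against 34.3% of all genes. The median log2 fold change was 0.63 over the members and 0.02 over all genes. Slc31a2 was higher by 1.87 on the log2 scale (SE 0.11, adjusted p = 4.5e-06), Slc39a1 by 0.86 (SE 0.11, adjusted p = 0.00055) and Mtf1 by 0.63 (SE 0.14, adjusted p = 0.0089). Mt2 was higher by 1.93 (SE 0.60, adjusted p = 0.046), with its lowest LPS + G-CDs library at 35.2 FPKM and its highest control library at 32.4. This call was lost in 9 of 17 alternative analyses, among them those without control replicate 1 (1.16, adjusted p = 0.065), control replicate 2 (2.12, adjusted p = 0.073), LPS + G-CDs replicate 2 (1.89, adjusted p = 0.12) and LPS + G-CDs replicate 3 (1.64, adjusted p = 0.12). After rescaling to TPM, which moved the median of all tested genes to -0.3759, only Slc31a2 kept its call.

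The remaining members did not pass the test against control. Slc30a1 differed by -0.05 (SE 0.13, 95% confidence interval -0.34 to 0.23, adjusted p = 0.80), and its LPS + G-CDs libraries fell inside the control range. Slc31a1 differed by 0.15 (SE 0.10, adjusted p = 0.32), which turned to -0.28 under TPM, and Slc39a14 by 0.52 (SE 0.24, adjusted p = 0.15). Slc39a14 ranged from 0.12 under TPM to 0.71 without LPS + G-CDs replicate 3, was at 0.30 without control replicate 3 and 0.32 without LPS + G-CDs replicate 1, and passed with the gene-length trend removed (0.62, adjusted p = 0.0049). Mt1 differed by 0.64 (SE 0.36, 95% confidence interval -0.18 to 1.47, adjusted p = 0.24), with LPS + G-CDs replicates 1 and 2 inside the control range of 79.7 to 186 FPKM. Its difference was 0.21 under TPM, 0.23 after quantile normalization, 0.30 without LPS + G-CDs replicate 3 and 0.35 without control replicate 1, and reached 0.96 without control replicate 3. Atp7a differed by -0.28 (SE 0.58, adjusted p = 0.76), and its interval from -1.61 to 1.04 covers large differences either way.

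Genes with the most similar pattern over the 9 libraries were found by Pearson's r of log2(FPKM + 1). The nearest to Mt1 were Rpl13 (r = 0.996), Rpl28 (0.995) and Mrpl23 (0.995), the first 2 of which encode proteins of the cytosolic ribosome and the last of the mitochondrial ribosome. Rpl13 had 239, 313 and 508 FPKM in control, 356, 326 and 351 in LPS and 334, 476 and 815 in LPS + G-CDs libraries, so its high and low libraries were those of Mt1. The nearest to Mt2 were Sdccag3 (0.997), Mrpl39 (0.990) and Pno1 (0.986), and to Slc39a14 they were Polr3a (0.996), Etv3 (0.996) and Hmgxb3 (0.994). For Slc30a1 the nearest were Gm23964 (0.938), a gene of 107 bases at 0 in the 3 LPS libraries, Dcaf12 (0.937) and the zinc importer Slc39a3 (0.929). Between members, r was 0.98 for Slc39a1 with Slc31a2, 0.95 for Mtf1 with Slc39a1, 0.71 for Mt1 with Mt2 and -0.85 for Mt1 with Atp7a. These values come from the same 9 libraries and share their groups, their depth and the length trend.

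The wider zinc and copper system was examined with a list of 40 further genes. Of these, 22 met the filter for testing, 10 were above 0 but not tested, and 8 were listed at 0 in every library, among them the other metallothioneins Mt3 and Mt4. The 8 also include Sco2, a copper chaperone of cytochrome c oxidase that cells use widely, so a listed 0 need not mean that a gene was not expressed. S100a8 and S100a9, which form the zinc-binding protein calprotectin, were among those not tested. Between LPS and control cells 7 of the 22 passed, 1 of them (Cp) tested only because it reaches 1 FPKM in the LPS libraries. The share called was near the 31.3% of all tested genes, and the median log2 fold change of the 22 was 0.00. With 1 FPKM required in all 9 libraries, 4 of 18 passed, where 2968 of all 9404 genes left by that filter did. Of the 7, 5 were higher and 2 lower, but this split depended on the scaling. Under TPM it was 1 higher and 6 lower, with 3 genes shared, and after quantile normalization it was 5 and 5. Over all tested genes the split moved as well, from 1827 higher and 1803 lower to 1003 and 3059 under TPM and 1633 and 2355 after quantile normalization.

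The genes that were higher with LPS were Cp, the secreted copper ferroxidase ceruloplasmin, Cox17, a copper chaperone of the mitochondrion, and the vesicle and Golgi zinc transporters Slc30a4, Slc30a6 and Slc30a7. Slc30a4 went from 4.85 to 11.1 FPKM on average (log2 fold change 1.05, adjusted p = 0.0058) and Slc30a6 from 4.72 to 7.69 FPKM (0.61, adjusted p = 0.016). Slc30a7 (0.58, adjusted p = 0.0063) had the smallest log2 fold change of the 7 and fell outside the rule for named genes. Under TPM none of these 3 calls held (0.89, adjusted p = 0.065 for Slc30a4, 0.42, adjusted p = 0.10 for Slc30a6 and 0.36, adjusted p = 0.21 for Slc30a7). The call of Cox17 (0.66, adjusted p = 0.025) was lost in 7 of 16 alternative analyses, among them those without control replicate 1 or 3 and without each LPS library (adjusted p between 0.052 and 0.10), and that of Slc30a6 without LPS replicate 2 (0.068). The lower genes were Steap3, an endosomal metalloreductase, and the zinc importer Slc39a3. Steap3 fell from 4.68, 4.63 and 5.24 FPKM in control to 1.06, 0.748 and 0.975 FPKM in LPS libraries (-1.60, adjusted p = 1.4e-05). Slc39a3 had 4.78, 3.7 and 3.20 FPKM in control, 2.29, 1.77 and 2.64 in LPS and 3.07, 3.81 and 3.97 in LPS + G-CDs libraries. Like Slc30a1 it was lower in each LPS library than in any other library, with a log2 fold change of -0.60 (adjusted p = 0.023) against control and an uncalled difference of 0.52 (adjusted p = 0.26) between LPS + G-CDs and LPS. Its call against control was lost without control replicate 1 (adjusted p = 0.064), LPS replicate 1 (0.063) or LPS replicate 2 (0.094).

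Between LPS + G-CDs and LPS cells Cp was the 1 gene of the 22 that passed, where 0.492% of all tested genes did, and with 1 FPKM required in all 9 libraries 0 of 18 passed. It had 0.15, 0.153 and 0.159 FPKM in control, 1.32, 1.52 and 1.32 in LPS and 0.318, 0.277 and 0.171 in LPS + G-CDs libraries. The LPS libraries stood apart from all others, and Cp reached the 1 FPKM needed for testing in these libraries alone, so it was tested because it is high in a group compared here and its call is given as a description. The log2 difference was -0.93 (SE 0.13, adjusted p = 0.023), which understates the change at this low level, and the mean FPKM was 5.43 times lower. The call was lost in 10 of 16 alternative analyses, among them those without LPS replicate 1, 2 or 3 (adjusted p = 0.13, 0.14 and 0.090) and without LPS + G-CDs replicate 2 or 3 (0.14 and 0.069), while voom on the reads gave -2.46 (adjusted p = 0.0022). Between LPS + G-CDs and control cells 5 of the 22 passed, against 25.3% of all tested genes, with 3 higher and 2 lower. Under TPM 0 were higher and 4 lower, and over all genes the calls moved from 1488 higher and 1439 lower to 761 and 3218. Slc30a4 (0.78, adjusted p = 0.028), Slc30a6 (0.73, adjusted p = 0.0077) and the importer Slc39a4 (0.56, adjusted p = 0.034) were higher, where 12.8% of all genes were called higher. The call of Slc30a4 was lost without control replicate 1 or 3 or LPS + G-CDs replicate 2 (adjusted p = 0.069, 0.071 and 0.069), and that of Slc39a4 without any 1 of the 6 libraries but control replicate 1 (0.052 to 0.11). Steap3 (-1.30, adjusted p = 6.7e-05) and the early secretory pathway transporter Slc39a13 (-0.51, adjusted p = 0.0055) were lower, where 12.4% of all genes were called lower.

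**Figure D4:**
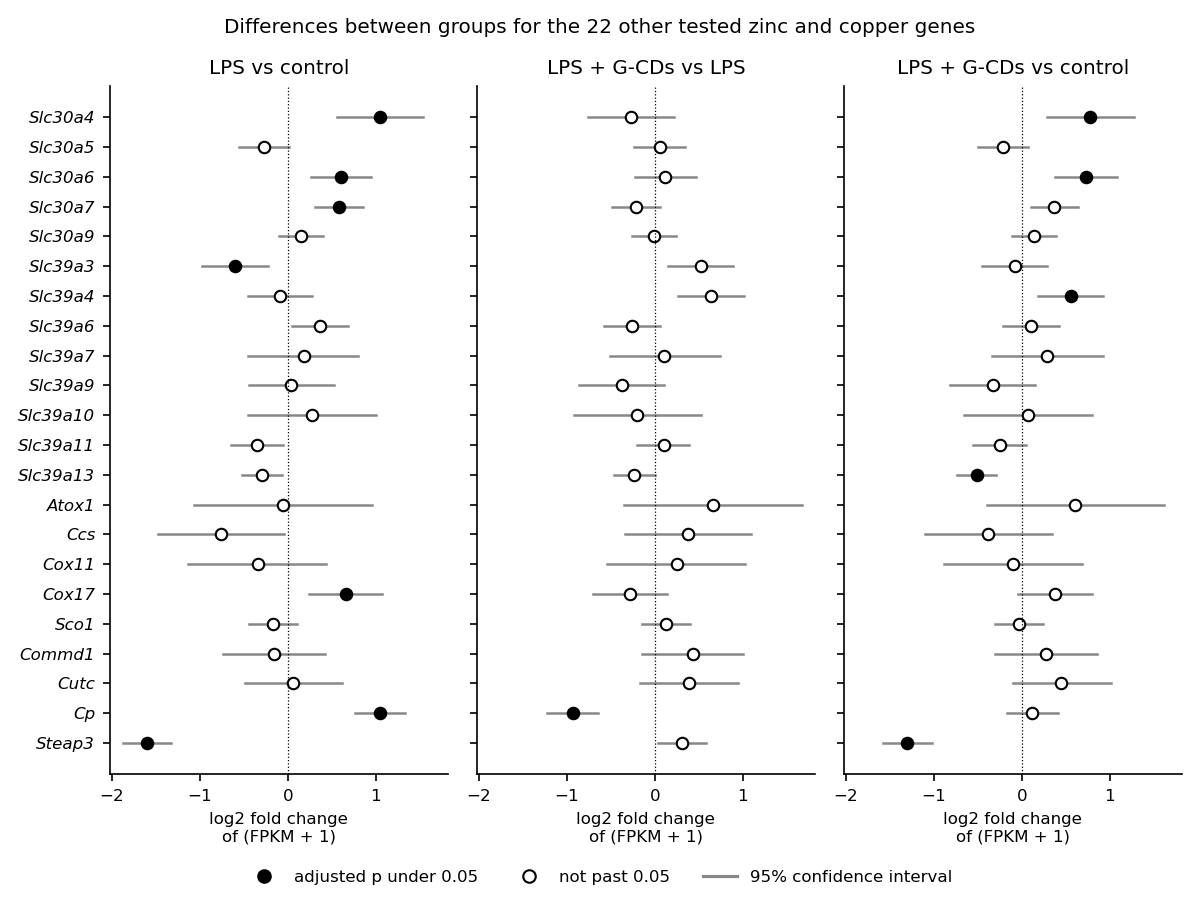
Log2 fold change of (FPKM + 1) with its 95% confidence interval for the 22 other tested zinc and copper genes in the 3 comparisons, where filled circles passed an adjusted p of 0.05. Steap3 is at -1.60 and -1.30 against control, Cp is at 1.05 with LPS against control and at -0.93 with LPS + G-CDs against LPS, and all other circles of the middle panel are open.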

How the data were processed

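Poly(A) RNA of 9 RAW264.7 libraries, 3 per group, was sequenced on an Illumina instrument. The authors deposited FPKM values per gene and library with gene coordinates and lengths. The submitters' processing notes name GRCm38 (mm10), and the aligner, the counting and the strand setting are not given in the sources used here. FPKM multiplied by gene length and divided by the value of 1 read in each library, estimated from the low values, gave whole reads (within 0.05) for 100.0% of values above 0. The library size behind FPKM was 1.11 to 1.14 times the reads on genes in control, 0.929 to 0.936 in LPS and 0.88 to 0.98 in LPS + G-CDs libraries, so the deposited values hold a scaling between libraries.

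Genes that reached 1 FPKM in 3 or more libraries (11585, all 9 members included) were fitted as log2(FPKM + 1) with limma 3.58.1 in R 4.3.3 (1 model of 3 groups, eBayes with trend, two-sided, Benjamini-Hochberg over all tested genes). Fold changes on this scale understate those of low genes. Python 3.11.15 and pandas 2.3.3 prepared the tables, and the fit was tested on simulated data. The members and lists were chosen with earlier results of these data known. Named genes were the 9 members, other zinc and copper genes called without overlap (at most the 6 largest per comparison), and the 3 genes nearest in pattern to Mt1, Mt2, Slc30a1 and Slc39a14. The correlation between same-numbered LPS and control libraries, taken over deviations from the group mean, was 0.103, 0.137 and 0.113. It was over the limit of 0.1 each time, so the numbers may pair those libraries. The correlations did not reach 0.1 throughout in the other comparisons. The main fit is unpaired and called 5 members between LPS and control. The replicate block called 6, and 4104 of all tested genes against 3630. Alternatives were another pseudocount (0.1), other filters, TPM, median-of-ratios and quantile scaling, removal of the gene-length trend, eBayes without trend, voom on the reads, fits to only the 6 libraries compared, a replicate block, the study's rule and each library left out. Promoter sequences are from RefSeq (GRCm38.p6). Intervals and the floor of 3 reads cover counting error only where they rest on reads.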

Additional observations from a re-analysis of the deposited data

How the results depend on the processing

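Over 18 alternative analyses the members called numbered 4 to 7 between LPS and control, 0 between LPS + G-CDs and LPS, and 1 to 5 between LPS + G-CDs and control. The value of 1 came from TPM, where 3979 of all 11585 genes were called, and the main counts were 4 and 2927. The value of 7 came with the gene-length trend removed, where 4260 of all genes were called against 3630 in the main fit. With no filter on low values 6 members and 3538 of 25079 genes were called between LPS and control. Leaving out 1 library gave 5 to 6, 0 to 0 and 3 to 4 members, and 2478 to 3292 of all genes between LPS and control. Mtf1, Slc30a1, Slc39a1 and Slc31a2 kept their LPS calls in all 17 alternatives that refit the gene. The study's rule, taken on the log2(FPKM + 1) scale, kept these but for Slc30a1. The call of Slc39a14 was lost under TPM. For the 22 other genes, a filter of FPKM at least 1 in all 9 libraries left 18 tested. It called 4 between LPS and control (2968 of all 9404 genes), 0 between LPS + G-CDs and LPS and 3 between LPS + G-CDs and control. The 6 libraries of a comparison alone gave 0 between LPS + G-CDs and LPS and 3 between LPS + G-CDs and control, and the study's rule gave 2 and 3. The pseudocount of 0.1, TPM and the length trend each gave 0 between LPS + G-CDs and LPS. Leaving out 1 library gave 4 to 8, 0 to 1 and 3 to 5 in the 3 comparisons. The lowest of these came without LPS replicate 2 against control, without any 1 library other than LPS + G-CDs replicate 1 between LPS + G-CDs and LPS, and without control replicate 3 or LPS + G-CDs replicate 2 between LPS + G-CDs and control.

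Directions turned for differences that no analysis called. Between LPS and control, Mt1 was at -0.25 under TPM, -0.19 under quantile normalization, -0.27 without control replicate 1 and -0.02 without LPS replicate 1. Between LPS + G-CDs and LPS, Mt2 was at -0.039 with the length trend removed and -0.12 without LPS + G-CDs replicate 3. Between LPS + G-CDs and control, Slc30a1 was at 0.00032 with the length trend removed and 0.022 without control replicate 1, Slc31a1 was at -0.28 under TPM, and Atp7a was at 0.02 without control replicate 1 and 0.28 without LPS + G-CDs replicate 3. Leaving out 1 library, these ranged from -0.27 to 0.33 for Mt1, -0.12 to 0.50 for Mt2, -0.15 to 0.022 for Slc30a1 and -0.87 to 0.28 for Atp7a. The cause was not tested in any of these cases.

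Under TPM the median difference over all tested genes became -0.2321, -0.1354 and -0.3759 in the 3 comparisons, in the order above. With the replicate block, fitted to all 9 libraries, the members called were 6, 0 and 5. Between LPS and control it called 4104 of all 11585 tested genes, against 3630 in the main fit. Mt2 was called between LPS and control (adjusted p = 0.012) and Slc39a14 between LPS + G-CDs and control (0.045), while Cp was not called between LPS + G-CDs and LPS (0.055). In the comparisons other than LPS against control the libraries share only a number, and same-numbered LPS + G-CDs libraries correlated at 0.095, 0.08 and 0.143 with LPS and at 0.28, 0.057 and 0.653 with control. Each LPS + G-CDs library correlated best with its own number among the LPS libraries, but replicate 1 did not among the control libraries (0.504 with control replicate 2). With 3 libraries a group, an interval that includes 0 does not show that a gene was unchanged.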
